A study of Homo sapiens with 2 samples.

Results

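Amino acid transporters of the SLC1, SLC3, SLC6, SLC7, SLC36, SLC38 and SLC43 families were examined in A375 melanoma cells after knockdown of THOC2. The members were chosen by gene symbol in the deposited annotation, which gave 49 of 34757 gene symbols and 73 of 58199 probes on the array. SLC3A1 was singled out for having the largest decrease of the group in these same data, so its value is a description. A375 is a cell line from a human malignant melanoma. RNA of 1 culture transfected with an siRNA against THOC2 (si-THOC2) and of 1 culture transfected with a control siRNA (NC) was hybridized to 1 Agilent array each, and the labels place the harvest 48 h after transfection. The siRNAs, short RNA duplexes, direct degradation of the mRNAs they match. The methods list 4 siRNAs against THOC2 without saying which was used here. The source field of each sample names the opposite condition to its title and description, and the titles and descriptions were followed. The labels name DMEM with added glutamine as the culture medium, whereas the methods name an RPMI medium.

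With 1 array per condition nothing could be tested, and an effect of si-THOC2 cannot be told apart from any other difference between the 2 cultures. In such bulk RNA, fewer cells of a kind and less RNA per cell cannot be told apart either. Signal is the processed intensity of a spot after background subtraction by the scanner software. The log2 fold change is si-THOC2 minus NC after each array was reduced by its 75th percentile, which was 6.62 on the log2 scale with NC and 6.31 with si-THOC2. Because of this step, a probe with a moderately lower raw signal on the si-THOC2 array can have a log2 fold change near 0. A technical SD is the spread of the log2 fold change among repeated spots of other probes at like signal, since each transporter probe had 1 spot. It was 0.06 for probes with a log2 signal over 8, 0.11 between 6 and 8, 0.29 between 4 and 6 and 0.44 under 4, and it leaves out the spread between cultures.

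Both probes of THOC2 (chromosome X) were lower with si-THOC2. The probe from 122734486 to 122734545 read 136 on the NC array and 40.9 on the si-THOC2 array, giving a log2 fold change of -1.42. The probe from 122747960 to 122748019 had a log2 fold change of -0.63. Of the melanocyte lineage markers, SOX10 had a signal of 6196 with NC and MITF was measured on both arrays in 2 of 3 probes, while no probe of PMEL, TYR or TYRP1 was well above background on either array. One MLANA probe was well above background with si-THOC2 only and was at least 1.58-fold higher, S100B was at a log2 fold change of -0.66 and DCT at 0.75. Of neural crest and dedifferentiated melanoma markers, AXL was at -0.22 and NGFR at 0.32, and SOX9 was not well above background. Of markers of other cell types, 1 of 3 keratinocyte genes, 3 of 3 leukocyte genes and 2 of 2 endothelial genes were compared. KRT14 was at 0.62 and 1.49 in its 2 probes. The second was called higher, but was well above background with si-THOC2 only (at least 2.28-fold). CD3E was at 0.87, PTPRC at 0.39 in 1 of 5 probes and CD14 at 0.37, each with a technical SD of 0.29. The endothelial CDH5 was at -1.35 (called lower, well above background with NC only) and PECAM1 at 0.43. Their part in any result below was not tested. Calls were unevenly spread over the slide, from 0 to 12.6% lower and 0 to 19.9% higher calls in a grid of 16 by 8 blocks.

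Cells take up and exchange amino acids through these carriers. Members of the SLC7 light chain group reach the cell surface only when bound to a heavy chain, SLC3A1 (rBAT) or SLC3A2 (the heavy chain of CD98). SLC3A1 with its light chain SLC7A9 takes up cystine and basic amino acids in kidney tubules and intestine, and defects in either cause cystinuria. SLC3A2 with SLC7A5 imports leucine and other large neutral amino acids, and with SLC7A11 imports cystine in exchange for glutamate, both of which proliferating tumor cells use heavily.

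The sequences of 3 probes are shown because the account of the SLC3A1 pair rests on them. They are printed as in the deposited annotation, 5′ to 3′, with no base marked. The first is the SLC3A1 probe that was lower, the second is an upstream probe assigned to the same SLC3A1 mRNA, and the third is the probe of the light chain SLC7A9. The first lies at chr2:44547688-44547747 on the plus strand, the second at chr2:44539834-44539892 on the plus strand and the third at chr19:33333144-33333203 on the minus strand (hg19).
SLC3A1 downstream probe: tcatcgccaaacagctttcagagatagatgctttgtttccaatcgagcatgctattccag
SLC3A1 upstream probe: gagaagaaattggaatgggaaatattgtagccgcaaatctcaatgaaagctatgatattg
SLC7A9 probe: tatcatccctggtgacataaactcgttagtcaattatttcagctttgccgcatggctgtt
Their GC contents were 43.3%, 35.0% and 41.7%.

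SLC3A1 was the transporter gene with the largest difference, and the difference rests on 1 of its 4 probes. The downstream probe read 108 on the NC array and 18.3 on the si-THOC2 array, giving a log2 fold change of -2.26 with a technical SD of 0.29. The mean pixel signal of that spot was 149 over a local background of 25.0 with NC, and 57.4 over 23.0 with si-THOC2. With si-THOC2 the processed signal stood just above the lowest signal that the scanner software called well above background on that array, 15.9. Among all compared probes with a mean log2 signal between 5 and 6, the middle 95% of log2 fold changes ran from -0.87 to 0.90. The value lay outside that range, which is no test of it, because SLC3A1 was picked for its large decrease. In the block of the slide that holds the spot, 2.42% of 207 probes were called lower.

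The other 3 SLC3A1 probes were not well above background on either array. The upstream probe of the same mRNA read 3.23 on the NC array and 3.41 on the si-THOC2 array. The probe from 44528479 to 44528538, assigned to a splice variant, had 3.10 and 3.23, and the probe from 44541992 to 44542051, assigned to another, had 3.06 and 3.30. The gene spans of SLC3A1 and PREPL overlap in the RefSeq annotation of GRCh38.p14, and PREPL, which codes for a prolyl endopeptidase-like protein, has 2 probes on the opposite strand on either side of the downstream SLC3A1 probe. The PREPL probe that starts 1782 bases before it read 523 on the NC array and 341 on the si-THOC2 array, giving a log2 fold change of -0.31. The PREPL probe 1281 bases after it had 355 and 235, a log2 fold change of -0.29. Both PREPL values were thus below 0 and far smaller in size than that of the SLC3A1 probe. The slide block of each PREPL probe held 223 probes, of which 7.62% were called lower and 5.83% higher. Whether RNA of the opposite strand contributes to the SLC3A1 signal was not tested.

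**Figure D1:**
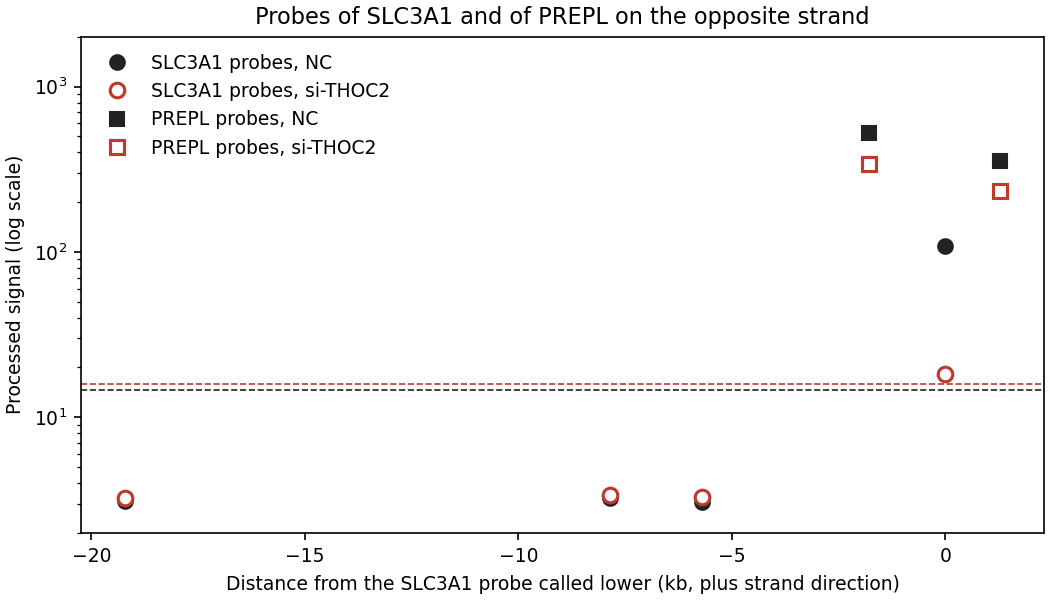
Processed signal (log scale) of the SLC3A1 probes (circles) and PREPL probes (squares) with NC (filled) and si-THOC2 (open), against the distance in kb from the SLC3A1 probe called lower, with 1 spot per point and array. Dashed lines mark each array's lowest signal called well above background, 14.7 with NC and 15.9 with si-THOC2. The SLC3A1 probe at 0 lies at 108 with NC and at 18.3 on the other array, while the other 3 SLC3A1 probes stay below the lines on both arrays.

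The light chains known to pair with SLC3A1 were not measurable. The SLC7A9 probe read 3.23 on the NC array and 3.53 on the si-THOC2 array, and the SLC7A13 probe (chromosome 8) had 2.97 and 3.20. Of 3 kidney proximal tubule markers, SLC34A1 and CUBN were not well above background in any probe, and LRP2 was measured at 178 with NC and 164 with si-THOC2. No change in the partners of SLC3A1 was detectable at this sensitivity.

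Over all members, few probes differed by 2-fold. Of the 73 probes, 34 were called well above background by the scanner software on each array, 3 on the NC array only, 1 on the si-THOC2 array only and 35 on neither. The 38 probes measured on at least 1 array (52.1%, against 43.5% of all probes) were compared, and they stand for 29 of the 49 genes. Of these, 4 entered through 1 array alone, a selection that favours probes that differ. One member probe (2.63%), that of SLC3A1, was lower by 2-fold or more, against 3.33% of all 25345 compared probes. Also 1 (2.63%), that of SLC6A19, was higher, against 2.93% of all. Both called probes were well above background on each array. Among the 34 such member probes they made up 2.94% lower and 2.94% higher, against 0.365% and 0.829% of 22207 probes, and each member share there is 1 probe. The 29 genes had a median log2 fold change of -0.01, against 0.02 for 17514 genes, and 17 of 29 (58.6%) were below 0, against 46.6% of all. At or below -0.5 were 3 genes (10.3%, against 9.02% of all), and at or above 0.5 were 2 (6.90%, against 7.54%). The 17 genes below 0 include SLC1A1 and SLC7A5, whose values round to 0.00. Among 25 genes with a probe well above background on each array, 14 were below 0 and 11 above. Of all genes with such a probe, 43.2% were below 0.

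**Figure D2:**
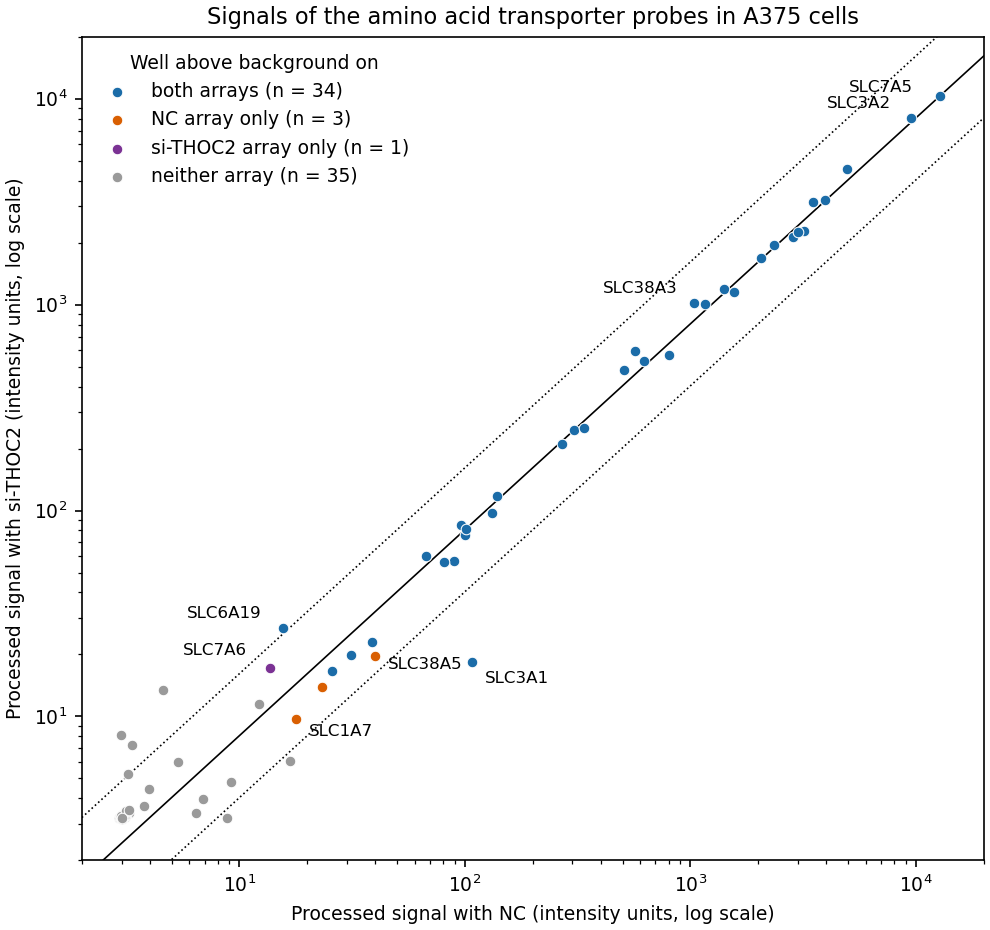
Processed signal with si-THOC2 against processed signal with NC (both on log scales) for the 73 transporter probes, coloured by the arrays on which a probe was well above background, with 1 spot per probe and array. The solid line is equal signal after scaling and the dotted lines are 2-fold differences, and SLC3A1 and SLC6A19 are the labelled measured probes outside them.

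The spread depended on signal. The 21 member probes whose log2 signal exceeded 7 on each array had log2 fold changes from -0.18 to 0.37 with an SD of 0.15, where all 12373 such probes had an SD of 0.23. The other 17 compared member probes ran from -2.26 to 1.09. All 5 genes past 0.5 in either direction, SLC3A1, SLC38A5, SLC1A7, SLC6A19 and SLC7A6, came from this dimmer part.

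**Figure D3:**
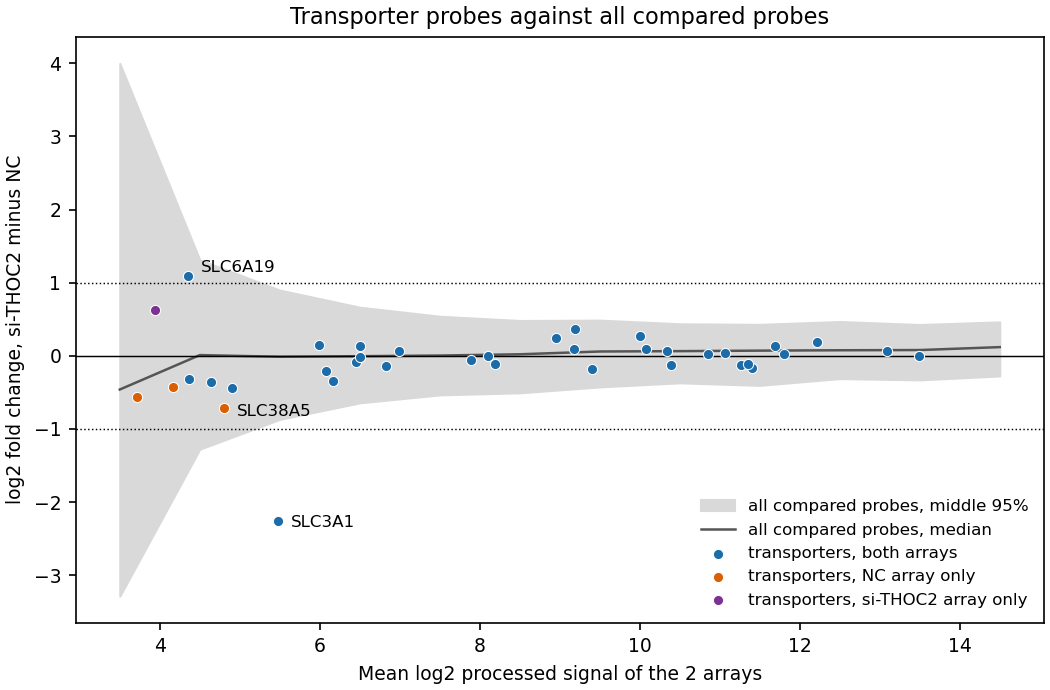
log2 fold change (si-THOC2 minus NC) of the 38 compared transporter probes against their mean log2 processed signal, over the median (line) and middle 95% (grey) of all compared probes in bins of signal. Transporter points lie close to 0 at high signals and spread at low signals, where the grey band widens too. SLC3A1, picked for its large decrease, lies at -2.26 outside the band. Dotted lines mark 2-fold.

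SLC3A2, the widely used heavy chain, was strongly measured and differed little. Its probe (chromosome 11, 62652689 to 62652748) read 9469 on the NC array and 8017 on the si-THOC2 array, giving a log2 fold change of 0.07, and 12.4% of the probes in its block of the slide were called higher. SLC7A5, the light chain of the leucine importer, had 12810.1 and 10319, a log2 fold change of 0.00. SLC7A11, the light chain of the cystine and glutamate exchanger, had 1559 and 1147, a log2 fold change of -0.13 with a technical SD of 0.06. The sign of SLC3A2 depended on the scaling. SLC7A5 ran from -0.12 to 0.00 over the alternatives, and SLC7A11 stayed below 0 in all of them.

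The remaining partners of SLC3A2 were well above background on at most 1 array. SLC7A6, which exchanges basic for neutral amino acids, was well above background with si-THOC2 only, reading 17.2 there and 13.7 on the NC array, and was at least 1.45-fold higher. Its probe starts 77 bases from a probe of SLC7A6OS on the opposite strand. SLC7A7, a carrier of the same kind, was well above background with NC only, at 23.2 against 13.9, and was at least 1.18-fold lower, in a block where 8.37% of probes were called lower and 7.39% higher. SLC7A8 read 3.15 and 3.0 with NC and 3.49 and 3.21 with si-THOC2 in its 2 probes, and SLC7A10 read 2.98 and 3.25, none of them well above background.

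Among the cationic amino acid transporters, SLC7A1, the main arginine and lysine importer of many cells, read 2343 on the NC array and 1946 on the si-THOC2 array, giving a log2 fold change of 0.04. SLC7A2, its inducible relative, had 101 and 81.1, a log2 fold change of -0.01. These differences lay within the technical SDs of 0.06 and 0.11. SLC7A3, SLC7A4 and SLC7A14 were not well above background on either array.

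The neutral exchangers of the SLC1 family differed slightly and alike. SLC1A5, which carries glutamine, read 2858 on the NC array and 2124 on the si-THOC2 array, giving a log2 fold change of -0.12. SLC1A4, a carrier of alanine, serine and cysteine, had 337 and 253, a log2 fold change of -0.11. Both values passed the technical SD of 0.06 and stayed below 0 in all alternatives, but they lay within the SD of 0.23 of all bright probes.

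Of the glutamate transporters, SLC1A1 read 305 on the NC array and 246 on the si-THOC2 array, giving a log2 fold change of 0.00. SLC1A3, known from astrocytes, had 31.4 and 19.8, a log2 fold change of -0.36 with a technical SD of 0.29. SLC1A7, known from retina, read 17.8 on the NC array and 9.67 on the si-THOC2 array, where it was not well above background. Its measured log2 fold change was -0.57, and no fold can be given because its NC signal after scaling lay under the lowest signal well above background with si-THOC2. SLC1A2 and SLC1A6 were not well above background on either array.

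SLC6A19 was the only transporter probe called higher. This carrier takes up neutral amino acids in intestine and kidney, and its loss causes Hartnup disorder. Its probe (chromosome 5, 1223316 to 1223375) read 15.6 on the NC array and 26.9 on the si-THOC2 array, giving a log2 fold change of 1.09 with a technical SD of 0.29. The mean pixel signal of the spot was 57.9 with NC and 67.9 with si-THOC2, over local backgrounds of 25.0 and 23.0. The NC signal stood close to the lowest one well above background on that array, 14.7, and among all compared probes with a mean log2 signal between 4 and 5 the middle 95% ran from -1.28 to 1.31, which includes the value.

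The other measured SLC6 genes had several probes, which did not move alike for SLC6A6 and SLC6A15. For the taurine transporter SLC6A6, the probe from 14530446 to 14530505 on chromosome 3 read 570.0 on the NC array and 595 on the si-THOC2 array, giving a log2 fold change of 0.37, while the other read 80.7 and 56.1, a log2 fold change of -0.21. For SLC6A15, a carrier of proline and branched-chain amino acids best known from brain, the log2 fold changes of 3 probes were -0.34, 0.07 and 0.15. For the glycine transporter SLC6A9 they were 0.02 (signals of 3955 and 3225) and 0.14. No direction can be read for SLC6A6 or SLC6A15, whose probes had opposite signs. SLC6A5, SLC6A7, SLC6A14, SLC6A17, SLC6A18 and SLC6A20 were not well above background on either array.

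In the SLC38 family of sodium-coupled neutral amino acid transporters, 8 of 11 genes were compared and no probe was called. SLC38A2, which cells raise when amino acids run short, had 2 probes at signals of 3191 and 3016 with NC and 2283 and 2261 with si-THOC2, with log2 fold changes of -0.17 and -0.11. SLC38A1, a glutamine importer, had log2 fold changes of 0.02 and 0.14. SLC38A2 was below 0 in all alternatives, while the sign for SLC38A1 turned negative with normexp background correction (-0.03). SLC38A9, the lysosomal arginine sensor of mTORC1, had 1412 and 1191, a log2 fold change of 0.06. SLC38A7, a lysosomal glutamine exporter, had 506 and 483, a log2 fold change of 0.24.

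SLC38A5, a glutamine and serine carrier, had the lowest value after SLC3A1. Its probe on chromosome X read 39.9 on the NC array and 19.6 on the si-THOC2 array, where it was not well above background. The measured log2 fold change was -0.71 with a technical SD of 0.29. Among all compared probes with a mean log2 signal between 4 and 5, the middle 95% ran from -1.28 to 1.31, which includes this value. SLC38A3 has 5 probes, of which 1 (chromosome 3, 50242722 to 50242781) was measured, at 1040.4 with NC and 1013 with si-THOC2, giving a log2 fold change of 0.27. The other 4 SLC38A3 probes were not well above background on either array. SLC38A6 had log2 fold changes of 0.10 for a probe at 1164 with NC and -0.32 for one at 25.7, and SLC38A10 had 0.19 and -0.06, so no direction can be read for either. SLC38A4, SLC38A8 and SLC38A11 were not well above background on either array.

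Of the proton-coupled SLC36 carriers, SLC36A1, which exports amino acids from lysosomes, read 801 on the NC array and 569 on the si-THOC2 array, giving a log2 fold change of -0.18. SLC36A4 had 2 probes, with log2 fold changes of -0.14 and -0.09. Both genes were below 0 in all alternatives, and SLC36A2 and SLC36A3 were not well above background. Of the SLC43 carriers of large neutral amino acids, SLC43A1 had 625 and 535, a log2 fold change of 0.09. SLC43A2 had 38.6 and 23.0, a log2 fold change of -0.44 with a technical SD of 0.29, in a block where 10.4% of probes were called lower.

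**Figure D4:**
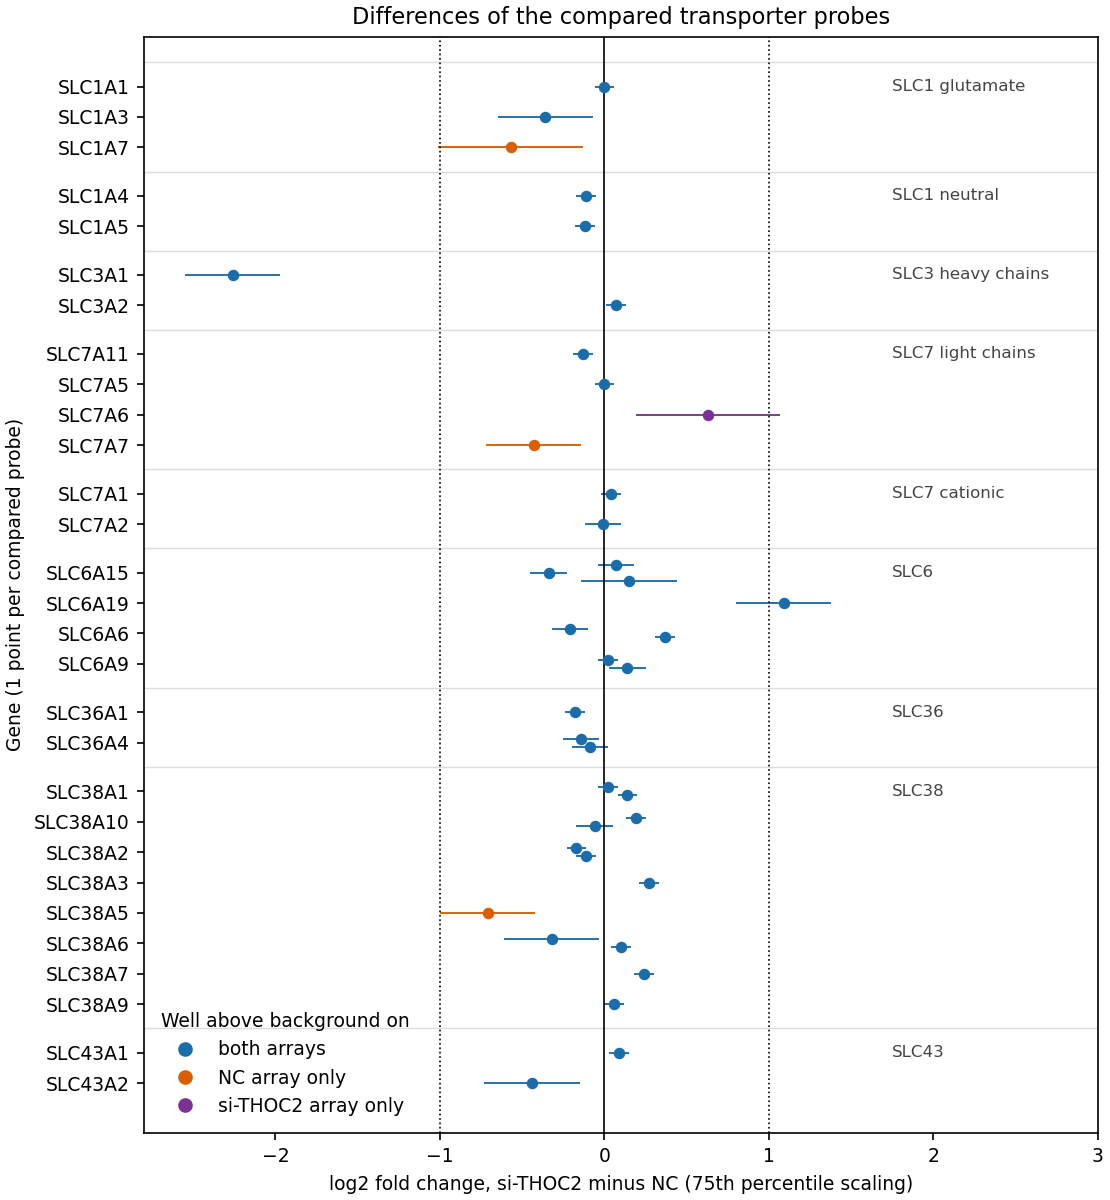
log2 fold change (si-THOC2 minus NC) of each of the 38 compared transporter probes, grouped by family, with bars for the technical SD of repeated spots at like signal, which do not cover differences between cultures. SLC3A1 lies at -2.26 and SLC6A19 at 1.09, and the other points lie inside the dotted lines at 2-fold. Points in orange and purple were well above background on 1 array only.

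In the 8 genes with more than 1 compared probe, the log2 fold changes of a gene's probes differed by a median of 0.19 and by at most 0.58, for SLC6A6. In 3 genes (SLC6A6, SLC6A15 and SLC38A6) the probes differed by more than 0.3. The 20 genes with no compared probe belonged to all families but SLC3 and SLC43. The 35 probes not well above background on either array had signals from 2.93 to 16.7 with NC (median 3.12, the highest being SLC6A17) and from 3.19 to 13.5 with si-THOC2 (median 3.39).

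Genes that sense, make or use amino acids were set beside the transporters. No probe of the 4 lists was called at 2-fold in either direction. Of 24 amino acid response genes driven by ATF4, 24 were compared, with a median log2 fold change of 0.06. The asparagine synthetase gene ASNS was at 0.13 and ATF4 itself at 0.11, while STC2, a secreted glycoprotein, was at -0.65 (signals of 243 with NC and 125 with si-THOC2). DDIT3, a stress transcription factor, was at -0.42 (3075 and 1857), in a block where 10.4% of probes were called lower. PHGDH, the first enzyme of serine synthesis, was at 0.30. Over 30 compared genes of amino acid sensing by mTORC1 the median was 0.05. The mTORC1 inhibitor gene TSC2 was at 0.45, the mean of 0.60 for a dim probe and 0.31 for a bright probe. Their technical SDs were 0.29 and 0.06. FNIP2, also dim, was at 0.44 with a technical SD of 0.29. Around the FNIP2 probe and the dim TSC2 probe, more probes of the slide block were called higher than lower. RHEB, which activates mTORC1, was at -0.39 with a technical SD of 0.06. Among all compared probes with a mean log2 signal between 8 and 9, the middle 95% ran from -0.51 to 0.48, which includes the RHEB value.

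Over 19 compared genes of glutamine and glutathione metabolism the median was 0.12. ASS1, which makes argininosuccinate on the way to arginine, had log2 fold changes of 0.75 and 0.50 in its 2 probes, GLUL, which makes glutamine, was at 0.39 and the transaminase GPT2 at 0.37. Over 14 compared genes of other amino acid and peptide transporters the median was 0.12, with the lysosomal cystine exporter CTNS at -0.57 (70.9 and 38.6), the creatine transporter SLC6A8 at 0.28 in both probes and the mitochondrial glycine carrier SLC25A38 at 0.25. These medians stand beside 0.02 for all compared genes and 0.06 for all probes whose log2 signal exceeded 7 on each array. Centring along the signal by lowess brought the list medians to values from -0.02 to 0.08, and normexp background correction to values from -0.04 to 0.03.

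**Figure D5:**
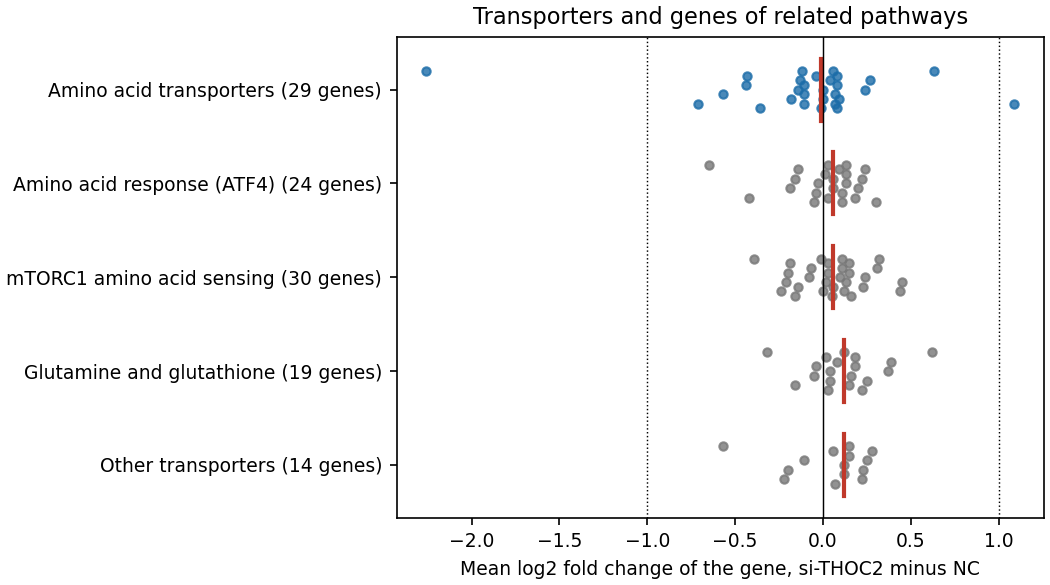
Mean log2 fold change (si-THOC2 minus NC) of each compared gene, 1 point per gene, for the amino acid transporters and 4 related lists, with red bars at the medians and dotted lines at 2-fold. The medians run from -0.01 for the transporters to 0.12, and SLC3A1 and SLC6A19 are the only points past 2-fold.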

How the data were processed

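RNA of 1 NC and 1 si-THOC2 culture of A375 was measured on Agilent SurePrint G3 v3 arrays, both on 1 slide. The authors deposited scanner output with intensity values per spot from Feature Extraction 10.7.1.1, which subtracts background and corrects trends over the array. They also deposited normalized log2 values, whose sorted values differ by at most 0.00079 between arrays (quantile normalization). A further deposited table holds the authors' own fold changes and was not used. The Student's test named in the methods was not applicable to single arrays.

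Control and outlier spots were dropped (none was saturated), and repeated spots were averaged as log2 values. A probe entered the comparison if either array showed it well above background, and was called at 2-fold, and a gene is the mean of its compared probes. With 1 array well above background, the brighter signal was set against the dim signal or, where higher, the lowest signal well above background on it (at least N-fold). Technical SDs came from 300 repeated probes, of which 6 lie between log2 signals of 4 and 6. The number of arrays limits the precision. All 49 member symbols matched the reference table, and older symbols in other lists were matched by Entrez identifier. All values are given for the heavy chains and their partners, for members called at 2-fold and for those past 0.5, and from each of the 4 related lists for called genes or the 3 with the largest difference, with ASNS and ATF4 chosen after their values were seen. Members and lists were chosen with earlier results of these data known. The calculation was tried on simulated data, with changes larger than the called fold and spot noise, for probes well above background on both arrays. It does not cover differences between cultures, probes measured on 1 array only or uneven blocks of the slide. Python 3.11.15 with numpy 2.4.6, pandas 2.3.3 and statsmodels 0.14.6 was used, with limma 3.58.1 in R 4.3.3 for normexp. Alternatives were other scalings, normexp, other detection filters, the deposited normalized values, limits in place of dim signals, a fold of 3, and other summaries of probes.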

Additional observations from a re-analysis of the deposited data

How the results depend on the processing

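No paired analysis was possible because neither condition was repeated. Centring by block of the slide was chosen after seeing the data. The median log2 fold change of the transporter genes was -0.01 and stayed within 0.1 of 0 in all alternatives, with 0.08 without a detection filter, where all compared genes had a median of 0.24. Against 1 lower and 1 higher transporter probe, normexp background correction gave 0 and 0, no detection filter gave 3 and 5, and a fold of 3 gave 1 and 0. SLC3A1 stayed below 0 in all 10 alternatives. It moved to -0.93 with normexp, which corrects the background in another way than the scanner software and adds an offset of 50 that compresses differences of dim signals. The share of each step was not tested. Without a filter, which averages in its 3 probes near background, SLC3A1 moved to -0.27. SLC6A19 stayed above 0 in all 10 and was at 0.37 with normexp. SLC38A5 moved to -0.12 with normexp. Of the 29 compared genes, 14 kept their sign in every alternative that gave a value, 9 below 0 and 5 above. The 15 counted as changing it in at least 1 include SLC7A5, whose values ran only from -0.12 to 0.00. Low signal limits SLC3A1, SLC6A19 and the other dim probes, and no number of spots replaces a second culture.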
